A study of Homo sapiens with 9 samples.

Results

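10 genes of the NF-kB pathway were followed in PANC-1, an established human cell line from a pancreatic duct carcinoma: the subunits NFKB1, NFKB2 and RELB, the inhibitors NFKBIA and TNFAIP3, the survival gene BIRC3, the adhesion gene ICAM1, and the secreted factors CXCL8, CCL2 and LIF. The members were taken from a list of names, drawn up with earlier results of these data known. Of the 10 members, 9 had a row among the 16750 genes analysed and all 9 passed the filter on low values, with 14554 genes tested in all; CCL2 was not analysed here. The study compared 3 stably transduced lines, each with 3 libraries: cells that carried an empty lentiviral vector (vector), cells that overexpressed SLC22A10 (SLC22A10_OE) and cells that overexpressed SLC22A15 (SLC22A15_OE), both solute carrier genes. Every line, vector included, was selected with 1 µg/ml puromycin for 2 weeks, kept in 0.5 µg/ml puromycin and used within passage 10. The labels call the lines clones and give the 3 libraries of a line the suffixes A1, A2 and B1; they do not say whether a line is 1 clone or several, or whether libraries came from separate cultures. The p-values below therefore measure library-to-library spread, part or all of which may be technical, and a change made by the transduced gene cannot be told apart from a difference between clones.

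NF-kB is a family of dimeric transcription factors that wait in the cytoplasm, bound by inhibitors of the IkB type, until a receptor of the TNF, IL-1 or Toll-like family activates the IKK kinases. IKK then marks the inhibitor for destruction, and the freed dimers bind kB sites in DNA and switch on cytokines, adhesion molecules, survival genes and their own inhibitors. NFKB1 and NFKB2 encode precursors of the p50 and p52 subunits, and RELB partners p52 in the non-canonical arm, which the kinase NIK (MAP3K14) turns on. In pancreatic carcinoma cells the pathway is widely studied for its role in survival and in the release of CXCL8 and LIF.

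Matches to the kB consensus near the start sites of these genes are shown first, because the subunits bind DNA at sites of this kind. RefSeq promoter sequences (GRCh38.p14, 250 bases before to 50 bases after each start site) were matched for 7 of the 10 members, in 10 windows; RELB, CCL2 and LIF had no entry. The kB consensus of 10 letters was searched on both strands, counting overlapping matches. It occurred in 6 of the 10 windows, in 5 of the 7 genes, against 11.3% of all 35116 promoter windows of that length. A window with at least 2 matches was held by 3 of the members. Of all windows 2.04% had at least 2, which is a share of windows and not of genes. Each line gives the gene's own strand, 5′ to 3′, with the matching letters in capitals and 10 bases on either side.
NFKB1, chr4:102501300-102501329, plus strand: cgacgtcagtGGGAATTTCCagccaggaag
NFKB2, chr10:102394461-102394490, plus strand: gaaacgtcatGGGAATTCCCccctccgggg
NFKB2, chr10:102395674-102395703, plus strand: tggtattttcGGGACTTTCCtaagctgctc
NFKBIA, chr14:35404811-35404840, minus strand: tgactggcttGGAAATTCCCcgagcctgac
TNFAIP3, chr6:137867182-137867211, plus strand: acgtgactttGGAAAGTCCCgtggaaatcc
TNFAIP3, chr6:137867194-137867223, plus strand: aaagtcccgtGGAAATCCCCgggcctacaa
BIRC3, chr11:102317275-102317304, plus strand: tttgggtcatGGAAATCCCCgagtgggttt
BIRC3, chr11:102317339-102317368, plus strand: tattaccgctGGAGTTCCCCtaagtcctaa
The match began 49 bases before the start site in NFKB1 and 81 bases before it in NFKBIA. The 2 matches of TNFAIP3 began 67 and 55 bases before the start site, so that their windows overlap, and those of BIRC3 began 199 and 135 bases before it. The NFKB2 sequences belong to 2 different start sites of the gene. The windows of those start sites held 3 and 2 matches, not all of which are printed. The windows of ICAM1 and CXCL8 held no match, which says only that these letters are not in those windows. A match is a description of sequence; no binding was measured in this series.

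**Figure D1:**
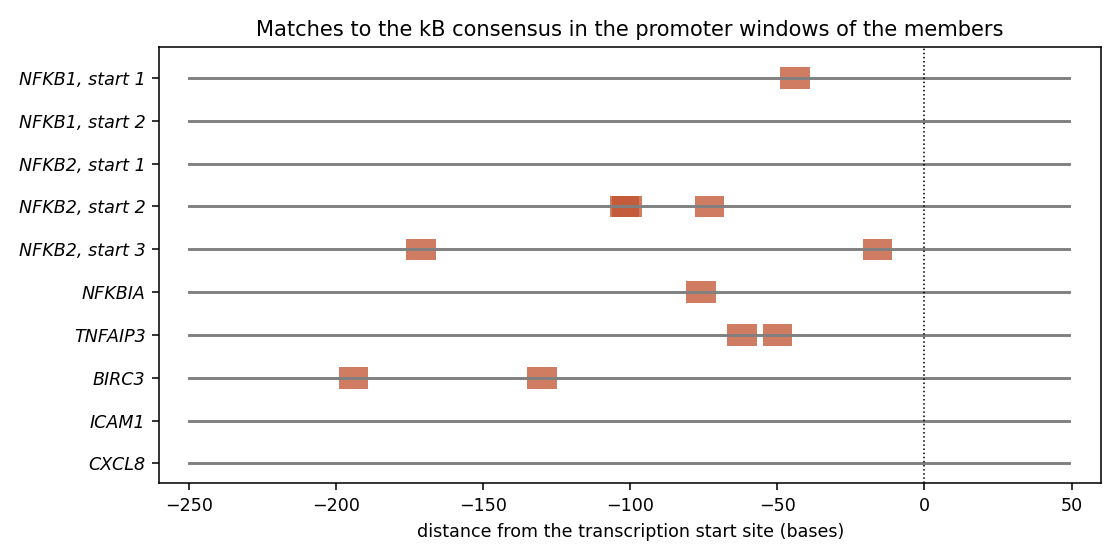
Positions of matches to the kB consensus (red boxes, 10 bases each; a darker box is an overlap) in 10 RefSeq promoter windows of 7 members, plotted as distance from the transcription start site in bases. All matches of the 5 genes that have one lie before the start site, and 1 window of NFKB1, 1 of NFKB2, and those of ICAM1 and CXCL8 are empty.

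The libraries held between 28351741 and 42942234 reads, so that 1 CPM stood for 27.8 to 43.4 reads. CPM are reads of a gene scaled to a library size that was slightly above the sum of reads in vector and SLC22A15_OE and slightly below it in SLC22A10_OE. SLC22A10 stood at 85.5 ± 5.53 CPM (SD, n = 3) in its own line, against 1 read over the 3 vector libraries and 0 reads in SLC22A15_OE; SLC22A15 stood at 75.9 ± 2.48 CPM in its own line, 6.11 ± 0.571 in vector and 3.84 ± 0.357 in SLC22A10_OE (SD, n = 3 each). Of 8 epithelial and ductal markers 5 were at or above 1 CPM in every library, KRT8, KRT18, KRT19 and SOX9 among them, while KRT7 was below 1 CPM in all 9 and EPCAM and CDH1 were not analysed here. Their summed level ran from 440 to 479 CPM in vector, 557 to 618 in SLC22A10_OE and 295 to 330 in SLC22A15_OE. The sum mixes directions: in SLC22A10_OE the means of KRT19, SOX9 and MUC1 were above vector and those of KRT18, KRT8 and KRT7 below. KRT19 stood at 216.4 ± 16.8 CPM there against 73.2 ± 7.65 in vector, and KRT18 at 99.2 ± 3.23 against 161.6 ± 1.47. In SLC22A15_OE only the mean of MUC1 was above vector. Of 11 macrophage and leukocyte markers 4 had values, led by CD68. Their summed levels were 19.0 to 22.3, 34.1 to 36.4 and 23.2 to 24.2 CPM in the same order. CD14 among them went from 0.612 ± 0.0677 CPM in vector to 8.14 ± 0.874 in SLC22A10_OE, where CD68 and ITGAM were also above vector and CSF1R below. Of 8 fibroblast and stellate markers 3 had values, with sums of 265 to 311, 608 to 659 and 421 to 458 CPM, nearly all of it RGS5. The part of these differences in the results below was not tested, and fewer cells of a kind and less RNA per cell cannot be told apart in bulk RNA. One library of each line, vector 1, SLC22A10_OE 3 and SLC22A15_OE 1, stood apart with 0.00958 to 0.0151% of reads on mitochondrial rRNA against 0.0454 to 0.0843% in the other 6, and members whose calls change without these 3 are named where they occur.

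In SLC22A10_OE against vector, NFKBIA, TNFAIP3 and ICAM1 were higher and NFKB1, RELB and LIF were lower, while NFKB2, BIRC3 and CXCL8 did not pass the test (limma on log2(CPM + 1), adjusted p under 0.05 over all genes tested). The count of 3 higher and 3 lower of 9 stands beside a background of 34.7% of all tested genes higher and 32.5% lower, so a share of this size is near what genes at large gave. In SLC22A15_OE against vector, NFKBIA and ICAM1 were higher and CXCL8 and LIF were lower, 4 of 9, against a background of 10.8% higher and 9.58% lower; over 9 chosen genes this is a description, with no test. The 3 libraries of each line did not overlap for 6 members in SLC22A10_OE against vector, where 69.2% of all tested genes did not overlap, and for 4 members in SLC22A15_OE against vector, where 34.7% did not. The median change of the 9 members was 0.05 and -0.02 on the log2 scale in these comparisons, and the median size of a change without its sign was 0.29 and 0.13, beside 0.32 and 0.12 over all tested genes. Both comparisons use the same vector libraries, so their values are set side by side and not counted as separate evidence. With 3 libraries against 3, an exact permutation test of a single gene cannot go below p = 0.1, so the calls rest on the spread pooled over genes and lines.

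**Figure D2:**
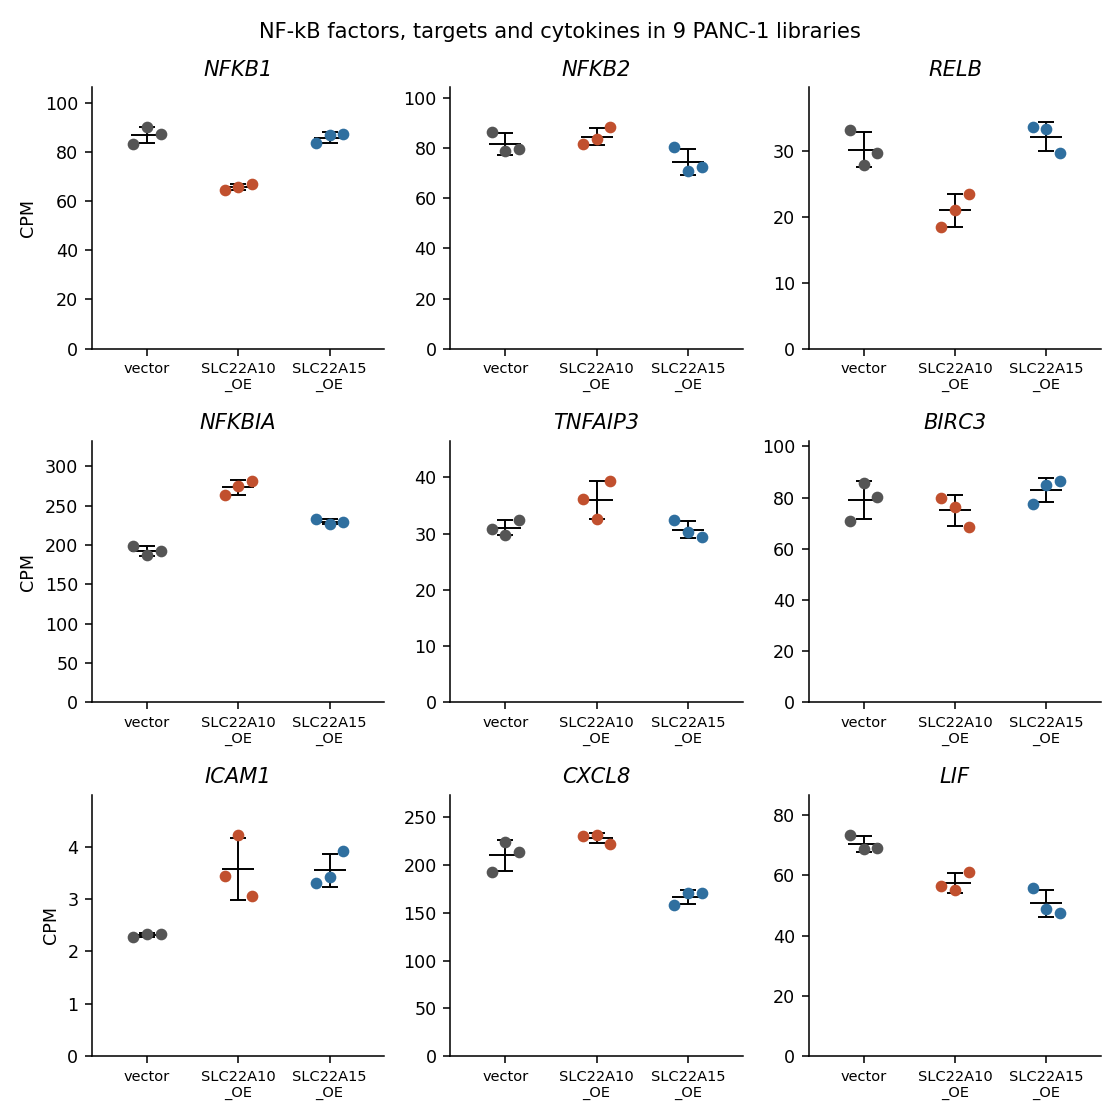
CPM of the 9 members in each library (points), with the mean and SD of the 3 libraries of a line (black bars); each vertical axis starts at 0 and has its own range. NFKB1 and RELB sit lower in SLC22A10_OE than in both other lines, NFKBIA is lowest in vector, and CXCL8 is lowest in SLC22A15_OE.

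Among the subunits, NFKB1 and RELB fell in SLC22A10_OE and NFKB2 did not pass the test. NFKB1 (chr4:102501329-102617302, plus strand; GRCh38, GENCODE v29, as for all genes here) stood at 83.3, 90.1 and 87.2 CPM in the vector libraries, at 64.3, 65.8 and 66.8 in SLC22A10_OE and at 83.4, 86.7 and 87.3 in SLC22A15_OE. Every SLC22A10_OE library was below every other library, and the vector and SLC22A15_OE ranges overlapped. The change was -0.40 on the log2 scale in SLC22A10_OE (SE 0.05, adjusted p = 1.1e-05, 0.756 times the vector mean, limma) and -0.02 in SLC22A15_OE (95% interval -0.12 to 0.09, adjusted p = 0.855). The difference between both overexpressing lines was itself past the threshold, at 0.38 (adjusted p = 2.07e-05).

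RELB (chr19:45001430-45038198, plus strand) had fewer reads than NFKB1 and, like it, was lowest in SLC22A10_OE. It stood at 33.2, 27.9 and 29.7 CPM in vector, at 18.6, 21.1 and 23.5 in SLC22A10_OE and at 33.7, 33.4 and 29.7 in SLC22A15_OE. The 3 SLC22A10_OE libraries lay below the other 6, which overlapped. The log2 change was -0.51 in SLC22A10_OE (SE 0.09, adjusted p = 0.00031, 0.695 times the vector mean) and 0.09 in SLC22A15_OE (95% interval -0.11 to 0.29, adjusted p = 0.556), with a difference of 0.60 between the overexpressing lines (adjusted p = 9.79e-05).

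NFKB2 (chr10:102394110-102402529, plus strand) moved less. Its values were 86.6, 79.0 and 79.6 CPM in vector, 81.9, 83.8 and 88.5 in SLC22A10_OE and 80.6, 71.0 and 72.6 in SLC22A15_OE. Vector overlapped both other lines, while all SLC22A15_OE libraries were below all SLC22A10_OE libraries. Against vector the log2 change was 0.05 (95% interval -0.08 to 0.18, adjusted p = 0.47) in SLC22A10_OE and -0.13 (95% interval -0.26 to 0.00, adjusted p = 0.164) in SLC22A15_OE. Without the 3 libraries of low mitochondrial rRNA the latter passed, at -0.14 (adjusted p = 0.0193). It also passed with a term for them (adjusted p = 0.00462) and with the library number as a block in the 6 libraries of both lines (0.00319). Vector 1 and SLC22A15_OE 1 are both low in mitochondrial rRNA and share a number. These settings therefore overlap and are not separate checks. SLC22A15_OE was lower than SLC22A10_OE by -0.18 (adjusted p = 0.0198), a call that was lost without SLC22A10_OE 3 (adjusted p = 0.0761), SLC22A15_OE 2 (0.0905) or SLC22A15_OE 3 (0.0723) and with libraries centred on their median (0.217).

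Per kilobase of exon, the levels of the 5 NF-kB subunit genes in vector followed the order NFKB2, NFKB1, RELB, RELA and REL, at 18.2 ± 0.947, 13.9 ± 0.54, 9.98 ± 0.894, 7.78 ± 0.336 and 3.08 ± 0.183 CPM per kilobase (SD, n = 3). This order depends on the exon length used. In CPM without that division NFKB1, NFKB2, RELA, REL and RELB stood at 86.9, 81.7, 42.5, 40.6 and 30.3 in vector. RELA encodes the main activating partner of p50, and REL a related subunit best known from lymphocytes. In SLC22A10_OE the levels were 18.9 ± 0.764, 10.5 ± 0.2, 6.94 ± 0.82, 6.89 ± 0.674 and 3.36 ± 0.241, so that RELB and RELA were within their SDs of each other there. In SLC22A15_OE they were 16.7 ± 1.14, 13.7 ± 0.333, 10.6 ± 0.732, 7.98 ± 0.175 and 2.89 ± 0.198, in the order of vector. RELA itself changed by -0.17 on the log2 scale in SLC22A10_OE (adjusted p = 0.0453), a call that was lost without vector 1 (adjusted p = 0.106), vector 3 (0.108), SLC22A10_OE 1 (0.0511), SLC22A10_OE 2 (0.225), SLC22A15_OE 2 (0.061) or SLC22A15_OE 3 (0.0596), with the 6 libraries compared alone (0.0686) and with no mean trend (0.0639), and by 0.04 in SLC22A15_OE (adjusted p = 0.771).

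NFKBIA encodes IkB alpha, the inhibitor that holds NF-kB in the cytoplasm and a textbook target of NF-kB itself. The gene (chr14:35401511-35404749, minus strand) was higher in both overexpressing lines. It stood at 199, 187 and 193 CPM in vector, at 263, 276 and 282 in SLC22A10_OE and at 233, 227 and 229 in SLC22A15_OE, so that no library of one line overlapped those of another. The log2 change was 0.50 in SLC22A10_OE (SE 0.04, adjusted p = 4.61e-07, 1.42 times the vector mean) and 0.25 in SLC22A15_OE (SE 0.04, adjusted p = 0.00109), and SLC22A15_OE was below SLC22A10_OE by -0.25 (adjusted p = 0.000255). At 81.3 ± 2.64 CPM per kilobase in vector (SD, n = 3) NFKBIA was above the 5 subunit genes in that unit.

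TNFAIP3 encodes A20, an enzyme that edits ubiquitin chains and ends signalling upstream of IKK. The gene (chr6:137867188-137883312, plus strand) stood at 30.8, 29.8 and 32.5 CPM in vector, at 36.1, 32.6 and 39.4 in SLC22A10_OE and at 32.4, 30.3 and 29.4 in SLC22A15_OE. The lowest SLC22A10_OE library was just above the highest vector library, and the ranges of vector and SLC22A15_OE overlapped. The log2 change was 0.21 in SLC22A10_OE (SE 0.07, adjusted p = 0.0269) and -0.02 in SLC22A15_OE (adjusted p = 0.914). The first call was lost without vector 2 (adjusted p = 0.0838), SLC22A10_OE 1 (0.0633) or SLC22A10_OE 3 (0.126), without the 3 libraries of low mitochondrial rRNA (0.075) and with centring, where the change was 0.08 (0.315). SLC22A15_OE was below SLC22A10_OE by -0.22 (adjusted p = 0.0202), and that call was lost without SLC22A10_OE 1 (0.0512), SLC22A10_OE 3 (0.0963), SLC22A15_OE 2 (0.0575) or SLC22A15_OE 3 (0.0783) and with centring (0.146).

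BIRC3 encodes cIAP2, a ubiquitin ligase that blocks cell death and also helps to degrade NIK. The gene (chr11:102317450-102339403, plus strand) stood at 70.9, 85.6 and 80.2 CPM in vector, at 80.0, 76.5 and 68.4 in SLC22A10_OE and at 77.7, 84.9 and 86.6 in SLC22A15_OE. All 3 lines overlapped, and no comparison passed the test. The log2 change was -0.07 in SLC22A10_OE (95% interval -0.24 to 0.09, adjusted p = 0.426) and 0.08 in SLC22A15_OE (95% interval -0.09 to 0.24, adjusted p = 0.551). With centring, SLC22A10_OE was below vector by -0.19 (adjusted p = 0.0461). SLC22A15_OE was above SLC22A10_OE by 0.15 (adjusted p = 0.111), which passed with centring (0.0172), with a term for low mitochondrial rRNA (0.00098) and without those 3 libraries (0.0183).

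ICAM1 encodes an adhesion molecule that leukocytes grip, and was the least abundant member. The gene (chr19:10270835-10286615, plus strand) stood at 2.28, 2.33 and 2.33 CPM in vector, at 3.44, 4.24 and 3.06 in SLC22A10_OE and at 3.30, 3.43 and 3.92 in SLC22A15_OE, from 245, 366 and 406 reads in all. All 6 overexpressing libraries were above all 3 vector libraries, and the overexpressing lines overlapped. On the log2(CPM + 1) scale, which understates a change at this level, the difference was 0.46 in SLC22A10_OE (SE 0.11, adjusted p = 0.00291) and 0.45 in SLC22A15_OE (SE 0.11, adjusted p = 0.0116); the means were 1.55 and 1.53 times that of vector. The authors' deposited table gives log2 fold changes of 0.63 and 0.62 for ICAM1 in these comparisons. The call in SLC22A15_OE was lost without SLC22A15_OE 3 (adjusted p = 0.0567). The 2 overexpressing lines differed by -0.00 (95% interval -0.25 to 0.24, adjusted p = 0.985).

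CXCL8 encodes interleukin 8, the chemokine that draws neutrophils. The gene (chr4:73740506-73743716, plus strand) stood at 193, 224 and 214 CPM in vector, at 231, 232 and 222 in SLC22A10_OE and at 158, 171 and 171 in SLC22A15_OE. The SLC22A15_OE libraries were below the other 6, and vector overlapped SLC22A10_OE. The log2 change was -0.33 in SLC22A15_OE (SE 0.06, adjusted p = 0.00101, 0.793 times the vector mean) and 0.12 in SLC22A10_OE (95% interval -0.00 to 0.24, adjusted p = 0.0789), with a difference of -0.45 between the overexpressing lines (adjusted p = 1.84e-05). The change in SLC22A10_OE passed without vector 2, at 0.17 (adjusted p = 0.0243), and with a term for low mitochondrial rRNA (0.000841), and was near 0 with centring (adjusted p = 0.997). Per kilobase of exon CXCL8 was the most abundant member in vector, at 92.5 ± 7.1 CPM per kilobase (SD, n = 3), a level within 2 SDs of that of NFKBIA. In both overexpressing lines the order was reversed. CXCL8 and NFKBIA stood at 100.4 ± 2.36 and 115.3 ± 3.93 in SLC22A10_OE and at 73.4 ± 3.2 and 96.7 ± 1.37 in SLC22A15_OE.

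LIF encodes leukemia inhibitory factor, a cytokine of the IL-6 family that signals through LIFR and IL6ST to STAT3. The gene (chr22:30240447-30246851, minus strand) was lower in both overexpressing lines. It stood at 73.5, 68.7 and 69.1 CPM in vector, at 56.3, 55.01 and 61.2 in SLC22A10_OE and at 55.7, 48.8 and 47.6 in SLC22A15_OE. All 6 overexpressing libraries were below the vector libraries and overlapped each other. The log2 change was -0.29 in SLC22A10_OE (SE 0.07, adjusted p = 0.00203, 0.817 times the vector mean) and -0.47 in SLC22A15_OE (SE 0.07, adjusted p = 0.000238, 0.72 times the vector mean). SLC22A15_OE was below SLC22A10_OE by -0.18 (adjusted p = 0.0324), a call lost without SLC22A10_OE 1 (0.0519), SLC22A10_OE 3 (0.127), SLC22A15_OE 2 (0.11) or SLC22A15_OE 3 (0.137), without the mean trend (0.056) and with centring (0.268).

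Set directly against each other, SLC22A15_OE was higher than SLC22A10_OE for NFKB1 and RELB and lower for NFKB2, NFKBIA, TNFAIP3, CXCL8 and LIF, while BIRC3 and ICAM1 did not pass. These 2 higher and 5 lower of 9 stand beside 30.8% of all tested genes higher and 32.1% lower. The 3 libraries of each line did not overlap for 6 members, against 67.4% of all tested genes. Of the 5 lower calls, those of NFKB2, TNFAIP3 and LIF were the ones that single libraries decided, as given above; those of NFKBIA and CXCL8, and the higher calls of NFKB1 and RELB, kept their side of the threshold in each alternative run.

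**Figure D3:**
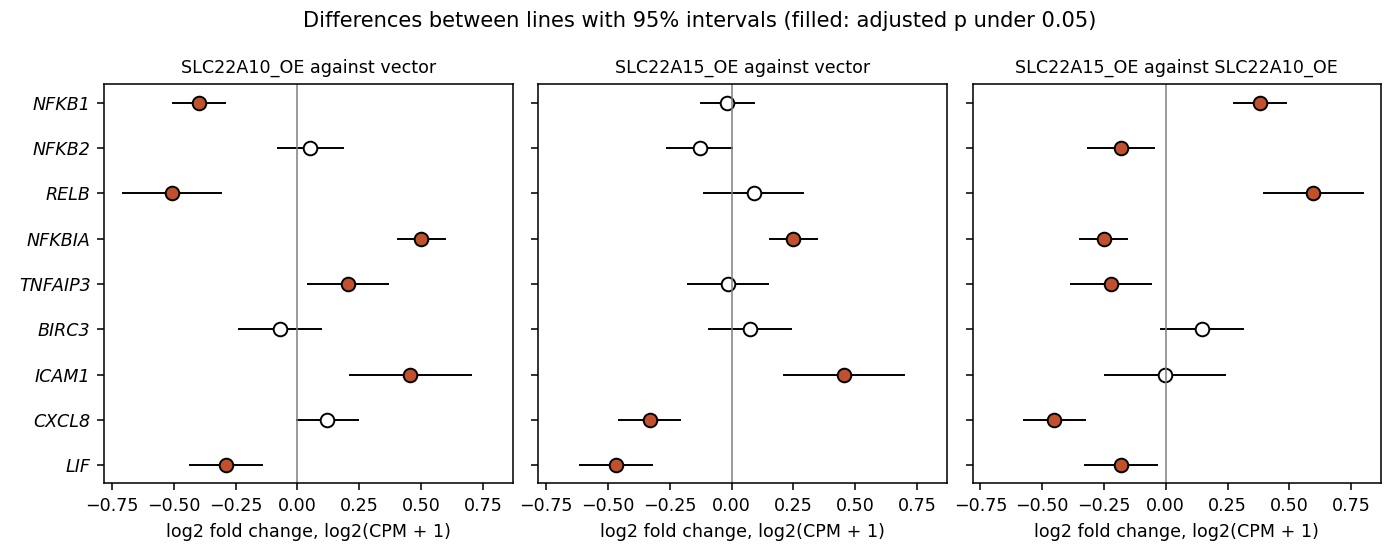
Log2 fold change on the log2(CPM + 1) scale of the 9 members in the 3 comparisons (points, filled where the adjusted p is under 0.05), with 95% intervals from limma (lines). NFKB1 and RELB lie left of 0 in the first panel at -0.40 and -0.51 and near 0 in the second, ICAM1 is at 0.46 and 0.45, and CXCL8 is left of 0 in both panels of SLC22A15_OE.

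The scale of the values bears on the calls in SLC22A10_OE. Centring each library on its median moved all log2 changes of SLC22A10_OE against vector by -0.12 and those of SLC22A15_OE against SLC22A10_OE by 0.09. The split of all tested genes went from 5047 higher and 4728 lower to 3875 higher and 6233 lower in the first, and from 4484 higher and 4674 lower to 5798 higher and 3713 lower in the second. After centring, 2 members were higher (NFKBIA and ICAM1) and 4 lower (NFKB1, RELB, LIF and BIRC3) in SLC22A10_OE against vector.

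The other genes of the pathway were taken from 11 lists with 180 genes, of which 130 had values and 120 were tested. In SLC22A10_OE against vector 44 were higher and 44 lower, 36.7% each, with a median of 0.01, and in SLC22A15_OE against vector 21 were higher and 22 lower, 17.5% and 18.3%. After centring the SLC22A10_OE counts were 34 higher and 54 lower, beside 3875 and 6233 of all 14554 tested genes. With the library number as a block in the 6 libraries compared, the SLC22A15_OE counts were 33 higher and 32 lower. Over all tested genes that block gave 2980 higher and 2942 lower, against 1572 and 1394 without it. The counts of each list below stand beside the shares over all tested genes given above. These were 34.7% higher and 32.5% lower in SLC22A10_OE and 10.8% and 9.58% in SLC22A15_OE. List counts after centring stand beside the centred split of all tested genes instead. Movement both ways is what genes at large showed too. Among the 3 tested ligands, IL1A and IL1B encode both forms of interleukin 1 and TNFSF10 encodes TRAIL, which triggers cell death. IL1A fell from 9.73 ± 0.768 CPM in vector to 3.32 ± 0.55 in SLC22A10_OE (log2 change -1.32, adjusted p = 1.33e-06) and stood at 9.27 ± 1.66 in SLC22A15_OE (adjusted p = 0.749). IL1B fell in both, from 10.7 ± 0.931 to 8.17 ± 0.786 and 5.70 ± 0.532 CPM (log2 changes -0.35 and -0.80). TNFSF10 rose from 0.153 ± 0.0415 to 10.2 ± 0.882 CPM in SLC22A10_OE (adjusted p = 1.57e-10). It stood at 0.635 ± 0.192 in SLC22A15_OE, where its call was lost with a pseudocount of 5 CPM (adjusted p = 0.103). TNFSF10 passed the filter on low values only through the SLC22A10_OE libraries, which favoured a higher call there. TNF itself reached at most 1.17 CPM in any library and was not tested.

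Of 18 tested receptors that signal to NF-kB, 6 were higher and 6 lower in SLC22A10_OE and 3 were higher and 3 lower in SLC22A15_OE. IL1R1, the signalling receptor of interleukin 1, rose from 60.2 ± 4.24 CPM in vector to 247 ± 11.4 in SLC22A10_OE (log2 change 2.02, adjusted p = 4.4e-11) and 134 ± 8.62 in SLC22A15_OE (1.14, adjusted p = 5.65e-08). Its partner chain IL1RAP fell from 10.3 ± 0.752 to 4.41 ± 0.268 and 6.94 ± 0.526 CPM (-1.06 and -0.51). The 2 chains of this receptor thus moved in opposite directions in both lines. TNFRSF12A, the receptor for TWEAK and a starter of the non-canonical arm, fell from 44.6 ± 6.24 to 9.31 ± 0.646 CPM in SLC22A10_OE (-2.14, adjusted p = 1.94e-09). In SLC22A15_OE it stood at 35.7 ± 3.98 CPM (-0.31, adjusted p = 0.0487), and its libraries overlapped those of vector. That call was lost in 11 of 22 alternatives, among them those without vector 1 (0.13), vector 3 (0.108), SLC22A10_OE 1 (0.0605), SLC22A10_OE 2 (0.0716), SLC22A15_OE 2 (0.133) or SLC22A15_OE 3 (0.177). TLR6, a Toll-like receptor, fell in both lines, from 13.6 ± 1.53 to 6.28 ± 0.548 and 5.29 ± 0.64 CPM, and TNFRSF10B, a TRAIL receptor, rose in both (0.55 and 0.30).

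The kinases and adaptors downstream of these receptors changed in both directions. Of 14 tested genes of the IKK complex and its upstream kinases, 3 were higher and 6 lower in SLC22A10_OE, and 2 were higher and 2 lower in SLC22A15_OE. MAP3K14, which encodes NIK, fell from 67.1 ± 3.9 CPM to 32.9 ± 0.682 in SLC22A10_OE (log2 change -1.01, adjusted p = 1.27e-08) and 54.6 ± 2.53 in SLC22A15_OE (-0.29, adjusted p = 0.00338). IKBKB, the catalytic IKK subunit of the canonical arm, rose in both lines (0.41 and 0.41), while CHUK, which encodes IKK alpha, fell in SLC22A10_OE (-0.40, adjusted p = 0.000458) and stood at 0.02 in SLC22A15_OE (adjusted p = 0.91). IKBKE rose in both lines (0.67 and 0.35, adjusted p = 0.000107 and 0.0325), and its call in SLC22A15_OE was lost in 5 of 22 alternatives. IRAK1, a kinase of the IL-1 receptor, fell in SLC22A10_OE from 563 ± 60.3 to 344 ± 20.8 CPM (-0.71) and stood at 539 ± 45.3 in SLC22A15_OE (-0.06, adjusted p = 0.638; 0.0323 with the block). IRAK2, its relative, was lower in both lines (-0.29 and -0.47), and its call in SLC22A10_OE was lost without the 3 libraries of low mitochondrial rRNA (adjusted p = 0.0689), vector 1 (0.0558) or vector 3 (0.0527).

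Of 18 tested adaptors and ubiquitin ligases, 7 were higher and 7 lower in SLC22A10_OE and 3 were higher and 2 lower in SLC22A15_OE. BIRC2, the neighbour of BIRC3 and its close relative as a ligase that degrades NIK, fell from 165 ± 14.2 CPM to 92.0 ± 4.72 in SLC22A10_OE (log2 change -0.83, adjusted p = 2.87e-07) and 135 ± 8.93 in SLC22A15_OE (-0.28, adjusted p = 0.0101), where BIRC3 did not pass in either. TRAF2, which brings these ligases to receptors, fell in SLC22A10_OE (-0.39, adjusted p = 0.000828). TRAF3IP2, an adaptor of the IL-17 receptor, rose in both lines (1.20 and 0.56), and CARD10, a scaffold that links receptors to IKK, fell in both (-0.99 and -1.20). TRADD rose in SLC22A10_OE from 7.01 ± 0.416 to 12.9 ± 1.34 CPM (0.79, adjusted p = 6.51e-05). In SLC22A15_OE TRADD stood at 0.32 (adjusted p = 0.0815), which passed with a term for low mitochondrial rRNA (0.00434) and with the block (0.00608). SHARPIN rose in both lines (0.54 and 0.31, adjusted p = 0.000242 and 0.0364), and its call in SLC22A15_OE was lost in 7 of 22 alternatives.

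**Figure D4:**
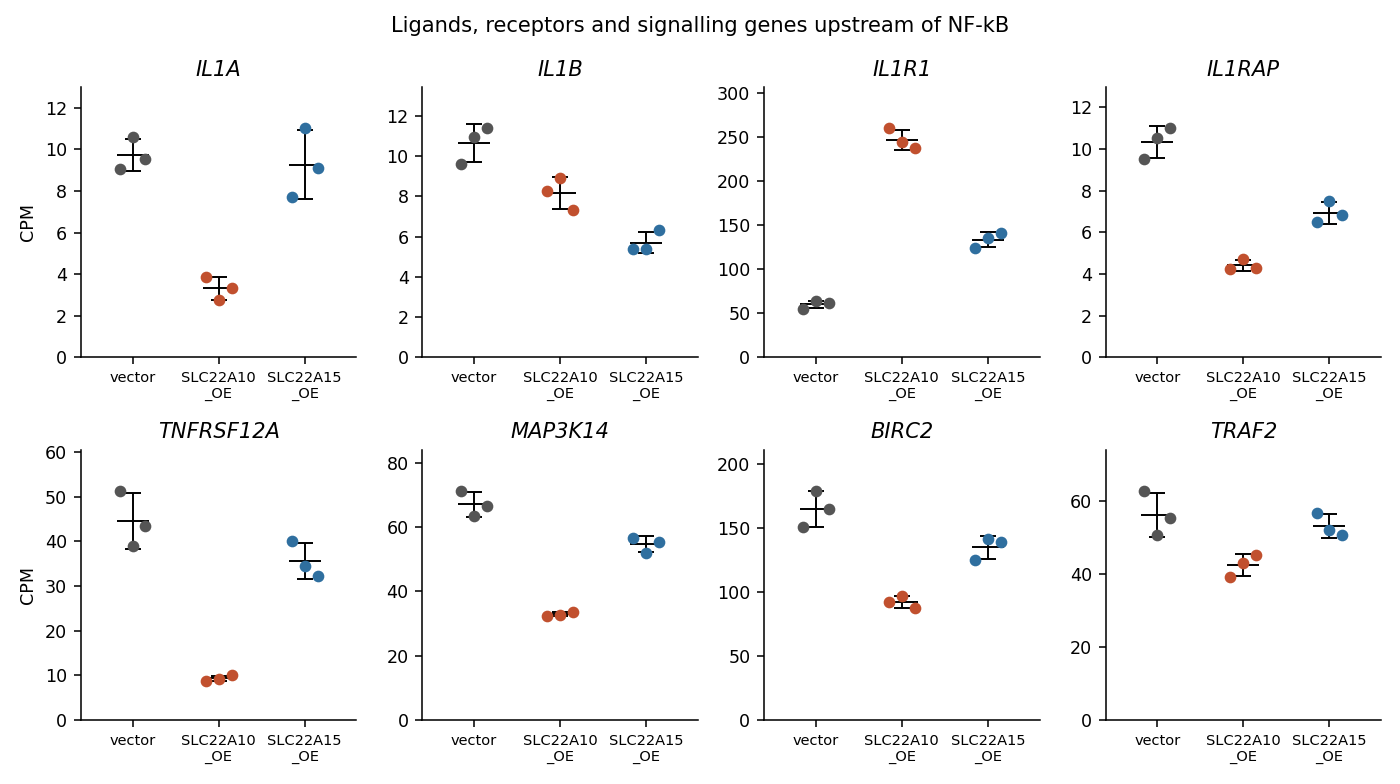
CPM in each library (points) of 8 genes upstream of NF-kB, with the mean and SD of the 3 libraries of a line (black bars); each vertical axis starts at 0 and has its own range. IL1R1 is at 60.2, 247 and 134 CPM in vector, SLC22A10_OE and SLC22A15_OE, while IL1A, IL1RAP, TNFRSF12A, MAP3K14, BIRC2 and TRAF2 are lowest in SLC22A10_OE.

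Of 12 tested IkB proteins and deubiquitinase brakes other than the members, 4 were higher and 4 lower in SLC22A10_OE, and 3 were higher and 1 lower in SLC22A15_OE. After centring 1 was higher and 6 were lower in SLC22A10_OE. NFKBIB, which encodes IkB beta, fell in SLC22A10_OE from 18.1 ± 2.29 to 10.6 ± 1.21 CPM (log2 change -0.71, adjusted p = 5.88e-05), the opposite direction to NFKBIA, and stood at -0.04 in SLC22A15_OE (adjusted p = 0.844). NFKBIZ, a nuclear IkB protein, rose in SLC22A10_OE (0.48, adjusted p = 4.6e-06) and stood at 0.13 in SLC22A15_OE (adjusted p = 0.12), which passed with a term for low mitochondrial rRNA (0.0273) and with the block (0.0309). BCL3, a nuclear IkB protein that partners p50 and p52, rose in both lines, by 0.33 in SLC22A10_OE (adjusted p = 0.0195) and 0.72 in SLC22A15_OE (adjusted p = 0.000393). The former call was lost without vector 2 (0.0906) or SLC22A10_OE 3 (0.0973) and with centring (0.102). OTULIN, which removes linear ubiquitin chains, fell in SLC22A10_OE (-0.47, adjusted p = 7.67e-07).

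Of 20 other NF-kB target genes tested, 9 were higher and 8 lower in SLC22A10_OE and 4 were higher and 7 lower in SLC22A15_OE, which is 45% and 40% in the first and 20% and 35% in the second. CFB, a complement factor, rose from 1.89 ± 0.491 CPM in vector to 7.27 ± 0.867 in SLC22A10_OE and 3.85 ± 0.256 in SLC22A15_OE (adjusted p = 4.56e-07 and 0.00107). LCN2, which encodes an iron-binding protein, rose from 1.09 ± 0.232 to 5.21 ± 0.569 and 2.09 ± 0.36 (adjusted p = 2.14e-07 and 0.00599). Its vector libraries stood at 0.923, 0.985 and 1.35 CPM, so LCN2 passed the filter on low values only through the overexpressing lines. The filter thus favoured a higher call for LCN2, which is counted among the 9 and the 4 higher. IRF1, a transcription factor of the interferon response, rose in both lines (log2 changes 0.89 and 0.43), as did ZC3H12A, which encodes an RNase that trims cytokine mRNAs (0.84 and 0.91). CD44, a hyaluronan receptor, fell from 1433 ± 60.9 CPM to 662 ± 34.7 and 780 ± 27.7, and PLAUR, the urokinase receptor, from 30.0 ± 2.98 to 18.1 ± 1.65 and 9.85 ± 0.778. KLF6, a zinc-finger transcription factor, fell in both (-0.21 and -0.42).

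Of 8 other chemokines tested, 6 were higher (75%) and 1 lower in SLC22A10_OE. In SLC22A15_OE 4 were higher and the other 4 did not pass. Of those higher in SLC22A10_OE, CX3CL1 (0 CPM in vector, 1.5 ± 0.472 in SLC22A10_OE) and CCL5 (0.423 ± 0.292 and 2.58 ± 0.66) passed the filter only through that line. CXCL6 (0.71 ± 0.168 and 3.57 ± 0.288) passed it only through the overexpressing lines. The filter thus favoured a higher call for these genes, and the 75% cannot be read against the background. Centring left 5 higher and 1 lower in SLC22A10_OE. CXCL5, which like CXCL8 draws neutrophils, rose from 53.7 ± 5.97 to 92.4 ± 2.19 CPM in SLC22A15_OE (log2 change 0.78, adjusted p = 4.47e-06), and CXCL1 from 188 ± 16.7 to 257 ± 14.4 (0.45, adjusted p = 0.000291), in the line where CXCL8 fell. CXCL2 fell in SLC22A10_OE from 14.1 ± 1.93 to 8.79 ± 0.701 (-0.62), and CXCL16 rose there from 21.1 ± 2.23 to 36.9 ± 2.39 (0.78). In SLC22A15_OE, CXCL2 stood at 0.06 (adjusted p = 0.714) and CXCL16 at 0.13 (adjusted p = 0.308), which passed without the 3 libraries of low mitochondrial rRNA, at 0.22 (0.0237). CXCL1, CXCL2 and CXCL3 are near copies of each other, so reads may have been split among them. The chemokine receptor tested, ACKR3, which takes up chemokines without signalling through G proteins, fell in both lines (-0.64 and -0.39).

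**Figure D5:**
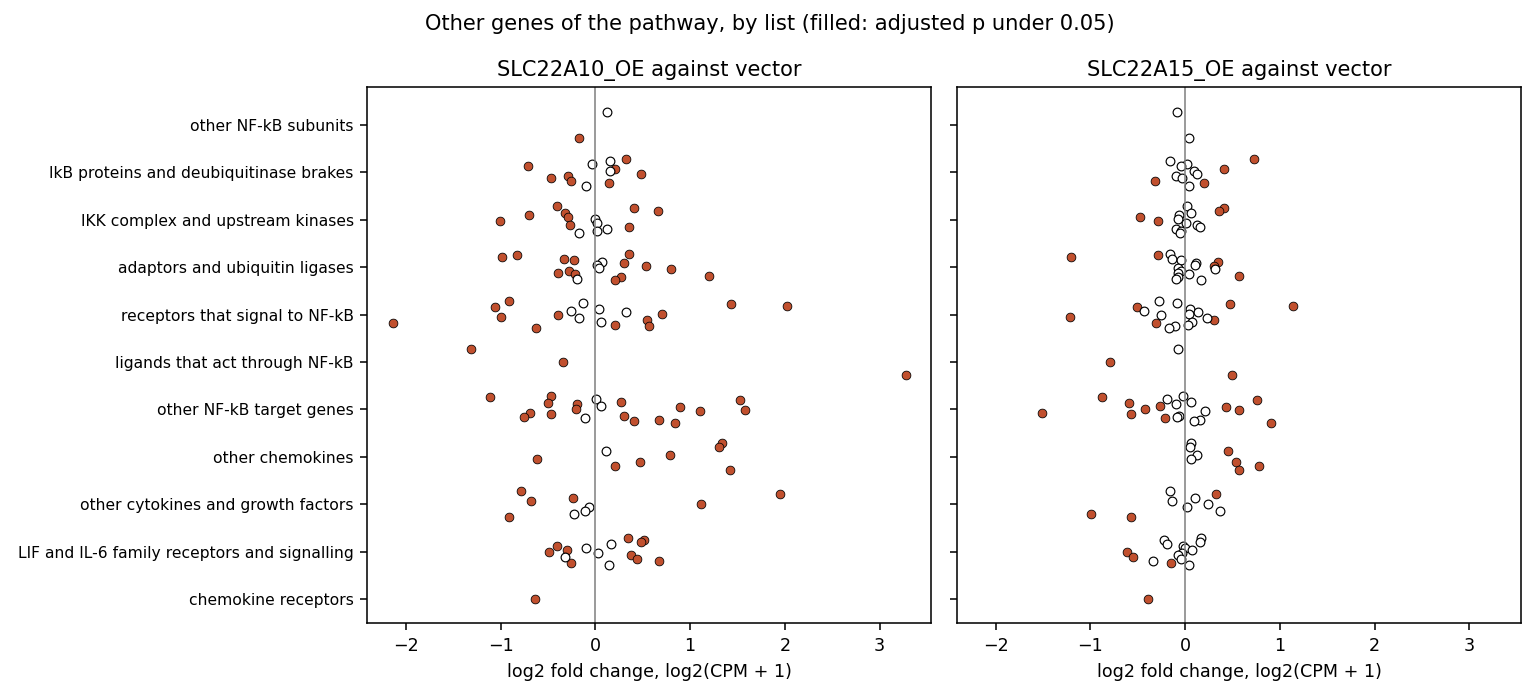
Log2 fold change on the log2(CPM + 1) scale of the tested genes of 11 lists (1 point a gene, filled where the adjusted p is under 0.05; genes are spread vertically within a list) in SLC22A10_OE and SLC22A15_OE, each against the same vector libraries. Filled points lie on both sides of 0 in most lists, and the point furthest right is TNFSF10 in SLC22A10_OE at 3.28.

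For the partners of LIF, 6 of the 15 tested receptor and signalling genes of the IL-6 family were higher and 4 lower in SLC22A10_OE, and in SLC22A15_OE 3 were lower and the other 12 did not pass. With centring, the first split was 4 higher and 6 lower. LIFR, which encodes the receptor chain that binds LIF, fell from 53.4 ± 0.852 CPM to 37.8 ± 0.698 and 34.8 ± 3.64 (log2 changes -0.49 and -0.61, adjusted p = 4.8e-05 and 4.06e-05), in the same direction as LIF. IL6ST, the shared signalling chain, fell in SLC22A10_OE (-0.41, adjusted p = 6.49e-05) and stood at -0.02 in SLC22A15_OE (adjusted p = 0.875). STAT3 was lower in both lines, at 271.3 ± 6.91 CPM in vector, 226.2 ± 0.743 in SLC22A10_OE and 244.3 ± 4.12 in SLC22A15_OE. The call of STAT3 in SLC22A15_OE was lost without SLC22A15_OE 3 (adjusted p = 0.079) and with no mean trend (0.0602). SOCS3, an inhibitor that STAT3 induces, rose in SLC22A10_OE from 3.92 ± 0.253 to 6.84 ± 0.646 CPM (0.67). In SLC22A15_OE it stood below vector, at 2.91 ± 0.532 CPM (-0.34, adjusted p = 0.0577). That difference passed in 8 of 22 alternatives, among them those without vector 1 (0.0475), SLC22A15_OE 1 (0.0315) or the 3 libraries of low mitochondrial rRNA (0.00821), with DESeq2 (0.0421) and with the block (0.0194). Of 9 other cytokines tested, 2 were higher and 4 lower in SLC22A10_OE, where CLCF1, a cytokine of the IL-6 family, fell from 12.9 ± 0.998 to 7.07 ± 0.773 CPM. IL32 fell in SLC22A15_OE from 6.08 ± 1.12 to 2.53 ± 0.456 CPM (adjusted p = 0.000136).

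The genes whose log2(CPM + 1) followed a member most closely over the 9 libraries were TRIP13 (Pearson's r 0.998) and NUP50 for NFKB1, ARMC6 (0.99) and NHEJ1 for RELB, and PACS2 (0.985) and MGAT4B for NFKB2. They were IDH2 (0.997) and RNF213 for NFKBIA, SIM2 (0.95) and PLCD3 for TNFAIP3, and ATP6V1G1 (0.98) and CASP8AP2 for BIRC3. For ICAM1 they were CEP19 (0.961) and FAM107B, for CXCL8 EIF4A2 (0.989) and ERRFI1, and for LIF CEBPB (0.977) and HMGA1. The libraries fall into 3 lines, so these values describe a shared order of the lines, chosen as the highest among about 11150 genes, and carry no test.

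ICAM1 shares 14274 bases with an annotated antisense gene and 815 with another, TNFAIP3 shares 1046 bases with one, and LIF shares 92 and 647 bases with 2. The library kit keeps strand, but no label or note says whether the counting used it, and reads of these partners may be part of the values of those 3 members.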

How the data were processed

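RNA of 9 PANC-1 libraries was depleted of rRNA and sequenced in pairs, per the labels' protocols. The authors deposited a CPM value per gene and library, and log2 fold changes with p-values and false discovery rates for each overexpressing line against vector; per the submitters' processing notes edgeR was used and the builds hg38 and mm9 are named, with no role given, and no aligner was named there. CPM values were whole multiples of 1 read (100% within 0.1 read), so reads were recovered. Main test: limma 3.58.1 in R 4.3.3 with a mean trend on log2(CPM + 1), all 9 libraries in 1 fit (6 residual degrees of freedom), genes with at least 1 CPM in 3 libraries, Benjamini-Hochberg adjustment over all 14554 tested genes, threshold 0.05. Alternatives were pseudocounts of 0.25 and 5 CPM, no filter or 5 CPM, centring on library medians, edgeR 4.0.16 and DESeq2 1.42.0 on recovered reads, 6 libraries only, no trend, a term for low mitochondrial rRNA, and each library left out. 2 others, chosen after seeing the data, left out the 3 libraries of low mitochondrial rRNA or used the column number as a block, in all 9 libraries or in the 6 of vector and SLC22A15_OE. Deviations of same-numbered libraries from their line's mean correlated at 0.566, 0.315 and 0.194 between vector and SLC22A15_OE. These are all over 0.1, so the number was taken as a pairing there, from the values and not from the labels. With SLC22A10_OE the correlations ranged from -0.411 to 0.143, and only 4 of 9 libraries correlated best with their own number. The block was chosen from the values it was run on, so a call it adds is a description and not a separate check. The procedure was also run on simulated data, in which far fewer genes changed than were called in SLC22A10_OE here. That run therefore does not bear on the scale of the values.

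Named pathway genes were, per list, comparison with vector and direction, up to 3 past the threshold with at least 5 CPM in the higher line and no overlap, by largest change; the text gives those and omits some. In lists without one, the gene of highest mean was taken. The members and lists were chosen with earlier results of these data known. Levels per kilobase used the union of exons in GENCODE v29. Marker lists of other cell types were given mainly as sums. Endothelial markers summed to 2.84 to 8.5 CPM and acinar markers to 0.072 to 0.699 CPM over all libraries.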

Additional observations from a re-analysis of the deposited data

Results flagged for a closer look

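For 7 members the change against vector differed between the overexpressing lines, by limma's test of the difference itself over all genes (SLC22A15_OE minus SLC22A10_OE, log2 scale). The difference was 0.38 for NFKB1, 0.60 for RELB, -0.18 for NFKB2, -0.25 for NFKBIA, -0.22 for TNFAIP3, -0.45 for CXCL8 and -0.18 for LIF. The changes against vector had opposite signs, not all past the threshold, for NFKB2 (0.05 and -0.13), TNFAIP3 (0.21 and -0.02), RELB (-0.51 and 0.09) and CXCL8 (0.12 and -0.33), and the same sign for NFKB1, NFKBIA and LIF. Of all tested genes, 30.8% were higher and 32.1% lower in the same comparison.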

How the results depend on the processing

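No result changed direction past the threshold in the alternatives run. With a filter of 5 CPM, ICAM1 was no longer tested and the members higher in SLC22A15_OE against vector went from 2 to 1. With centring, the members lower in SLC22A15_OE against SLC22A10_OE went from 5 to 2, while all tested genes lower went from 4674 to 3713. With a term for low mitochondrial rRNA, the other pathway genes higher in SLC22A15_OE against vector went from 21 to 33. They did so too with the replicate block in the 6 libraries compared (33), where all tested genes higher went from 1572 to 2980. The count over all tested genes with the term is not given here. With each library left out in turn, the members lower in SLC22A15_OE against SLC22A10_OE ranged from 2 to 5 and the members higher in SLC22A15_OE against vector from 1 to 2. The other 247 counts were within 1.5 times the main count. Of the values for single genes, 2980 kept their side of the threshold, 91 lost a call and 37 gained one; the cause was not tested.

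The titles' suffixes could not be matched to the column numbers, so the planned block on them was not run. With the column number as a replicate block, the members called were 3 higher and 3 lower in SLC22A10_OE, 2 and 2 in SLC22A15_OE, and 2 and 5 between the overexpressing lines, as without it, and calls over all genes were 9688, 2781 and 9111 against 9775, 2966 and 9158. In the 6 libraries of vector and SLC22A15_OE, which the numbers may pair, the replicate block gave 2980 genes higher and 2942 lower, against 1572 and 1394, with 2 residual degrees of freedom; among the members it added NFKB2 to those lower and changed no other call. ICAM1, at 245 reads in vector, is the member that depth limits most.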
